A study of Mus musculus with 2 samples.

Results

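The 4 genes followed here in the aged mouse cortex belong to the Cdr1as circuit: Mir7-1, Mir7-2 and Mir7b, which encode the microRNA (miRNA) miR-7, and Mir671, which encodes miR-671. They were taken by gene symbol in GENCODE M21, and all 4 were found among the 2202 miRNA genes of the count tables. Cortex of the left cerebral hemisphere came from B6CASTF1/J mice, a hybrid of C57BL/6J and CAST/EiJ supplied by The Jackson Laboratory, which were 18 to 20 months old and had no treatment that the labels name. RNA under 30 nt was sequenced in 2 libraries that form 1 group. The sex field says male and the free text says female, so sex was not used. The libraries are numbered as biological replicates 1 and 2 but point to a shared donor record, so separate animals cannot be assumed and differences between libraries may be technical.

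miRNAs guide Argonaute proteins to RNAs that pair with their seed, the stretch of bases near the 5′ end. Cdr1as is a circular RNA of neurons that holds many miR-7 seed matches, and miR-671 pairs with it along most of its length and directs its cutting. The long noncoding RNA Cyrano has an extended site for miR-7 and triggers the decay of that miRNA in the mouse. miR-7 itself is best known from the pituitary, pancreatic islets and neurons. Neither Cdr1as nor Cyrano was measured here, since the tables list miRNA genes only.

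The mature miRNAs show which loci can be told apart by their reads. Sequences are from RefSeq (GRCm38.p6), where all 4 genes had an entry, and capitals mark the seed, bases 2 to 8 from the 5′ end.
mmu-miR-7a-5p: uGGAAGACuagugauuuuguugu
mmu-miR-7b-5p: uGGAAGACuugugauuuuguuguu
mmu-miR-7a-1-3p: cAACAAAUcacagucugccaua
mmu-miR-7a-2-3p: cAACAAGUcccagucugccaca
mmu-miR-7b-3p: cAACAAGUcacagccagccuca
mmu-miR-671-5p: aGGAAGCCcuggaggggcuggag
mmu-miR-671-3p: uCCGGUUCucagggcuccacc

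The 5p arm of Mir7-1 and Mir7-2 is the same molecule, miR-7a-5p. Mir7b gives miR-7b-5p, which differs from it over 23 bases by the substitution A10U, counted from the 5′ end of miR-7a-5p, and has the same seed. No gene other than these 3 had that seed among 1738 RefSeq mature entries, whether bases 2 to 8 or 2 to 7 were compared. The 3p arms of Mir7-1 and Mir7-2 differ at 3 of 22 bases (A7G, A10C and U21C), and miR-7a-2-3p shares its seed with miR-7b-3p. The seed of miR-671-5p differs from that of miR-7 by 1 base, A7C, and was found at Mir671 alone.

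The miR-7 hairpins are printed because a stretch common to Mir7-1 and Mir7-2 bears on the counts of both. Capitals mark the longest run of bases that these loci share, 24 bases that cover the whole of miR-7a-5p, and the Mir7b hairpin is shown for comparison.
Mir7-1: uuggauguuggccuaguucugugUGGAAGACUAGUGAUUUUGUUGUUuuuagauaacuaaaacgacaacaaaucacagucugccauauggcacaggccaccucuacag
Mir7-2: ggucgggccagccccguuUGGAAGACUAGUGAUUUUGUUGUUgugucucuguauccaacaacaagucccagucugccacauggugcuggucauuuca
Mir7b: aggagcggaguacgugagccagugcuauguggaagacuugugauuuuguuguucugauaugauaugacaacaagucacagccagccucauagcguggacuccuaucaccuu

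The longest run that Mir7b shares with either of the others is 14 bases, and Mir671 shares at most 8 bases with any miR-7 hairpin. The deposited tables keep multimapping reads on a separate line and under no gene. A read within the 24 bases shared by Mir7-1 and Mir7-2, which hold all of miR-7a-5p, cannot be assigned to either locus by its sequence. The counts of these loci may leave out that arm. How many such reads there were, and which arm the counted reads came from, was not tested. The counts of Mir7-1 and Mir7-2 are therefore uncertain as measures of miR-7a, whereas Mir7b and Mir671 share no arm and no word of 20 bases with another miRNA gene.

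The loci lie on 4 chromosomes (mm10). Mir7-1 (ENSMUSG00000065434.1) lies at chr13:58392779-58392886 on the minus strand, in an intron of Hnrnpk, which encodes an RNA-binding protein of the spliceosome and of mRNA control. Mir7-2 (ENSMUSG00000065609.1) lies at chr7:78888277-78888373 on the plus strand, in no other annotated gene, 7481 bases before Aen, a nuclease gene induced by p53. Mir7b (ENSMUSG00000065491.1) lies at chr17:56242988-56243098 on the plus strand, also in no other gene, and 183 bases after the end of the long noncoding AC026385.1 on the same strand. Mir671 (ENSMUSG00000076387.1) lies at chr5:24592114-24592211 on the plus strand, within a coding exon of Chpf2, a gene of chondroitin synthesis, and opposite an exon of Smarcd3. A fragment of the Chpf2 transcript in this exon cannot be told from a Mir671 read in these counts. On the strand opposite to the 4 genes there were 0 reads in both libraries, which allows up to 1.26 CPM in replicate 1 and 0.676 CPM in replicate 2.

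The targets that give the circuit its name were read from the annotated transcripts to show what these seeds meet. C230004F18Rik, listed in RefSeq as Cdr1os with the synonym Cdr1as, is the linear transcript of the Cdr1as locus. Its transcript C230004F18Rik-206 holds 123 copies of GTCTTCC, the match to the miR-7 seed, in 3354 bases, which is 36.7 per kb, and 0 on the other strand. Among 19642 other annotated transcripts of at least that length, cut to the same length, 26.5% held at least 1 copy and the highest number was 4, in Col5a1. GGCTTCC, the match to the miR-671-5p seed, occurred 1 time there and 0 times on the other strand, against up to 8 times in the other transcripts, of which 32.2% had it on the transcript strand. The 2 motifs differ by a base and cannot coincide.

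The miR-7 matches had a common spacing. They ran between positions 363 and 3188 of the transcript, and 86 of the 122 distances between neighbouring matches were exactly 18 bases, with a range of 17 to 109. The repeated unit, the best miR-671 window and the Cyrano site are shown as DNA of the transcript strand. In the repeat capitals mark the seed match, in the Cyrano site the seed match and the run that pairs with the far end of miR-7a-5p, and in the miR-671 window each base that pairs with miR-671-5p.
Cdr1as repeat unit, chrX:61184181-61184198, plus strand: gaaaatccaaGTCTTCCc
Cdr1as miR-671 window, chrX:61186029-61186051, plus strand: tTCCAGCatCTCCAGGGCTTCCa
Cyrano miR-7 site, chr2:119602137-119602161, plus strand: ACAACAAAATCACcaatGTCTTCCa

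The miR-671 window pairs at 19 of 23 bases without a gap, and starts at position 3119 of the transcript. The Cyrano site, in 1700020I14Rik-202, joins the seed match to a run of 13 further bases complementary to the far end of miR-7a-5p. In the Cdr1as transcript the longest such run beside any miR-7 match was 7 bases. Cyrano had 2 copies of GTCTTCC in 8300 bases, a motif that 48.7% of 1407 other transcripts of that length held. These are matches of letters only, and no binding was measured.

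**Figure D1:**
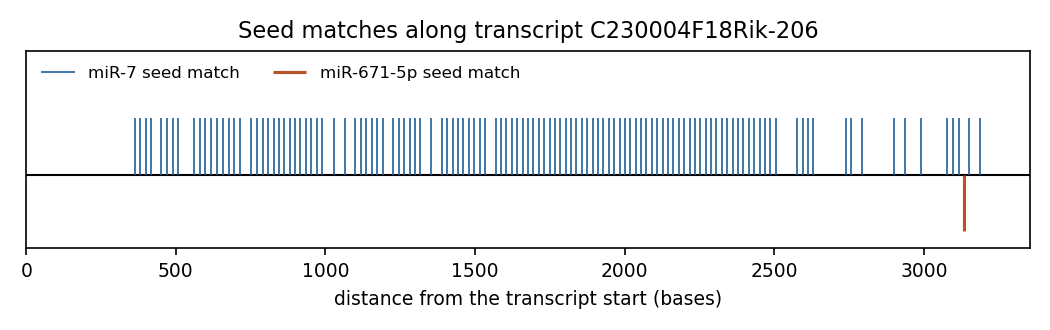
Positions of the seed matches of miR-7 (blue, above the line) and miR-671-5p (orange, below the line) along the 3354 bases of transcript C230004F18Rik-206, in bases from its start. The 123 miR-7 matches cover most of the transcript between positions 363 and 3188, and the only miR-671-5p match lies near its end.

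Levels were set by 2381663 reads on the gene strand of miRNA genes in replicate 1 and 4436398 in replicate 2, and are given as CPM, the reads of a gene scaled to that total. Multimapping reads came to 1.20 and 1.24 per such read, and a count of 0 allows up to 3 reads. Intervals are 95% exact binomial and cover counting error only, since amplified reads are not independent molecules. Neuronal markers gave mixed counts: the 13 neuron loci summed to 90506 and 71678 CPM. Of these loci 9 had 10 reads or more in both libraries, whereas the 3 Mir124a loci had 0 to 4 reads. Mir132 (69646 and 43349 CPM) and Mir128-1 (14354 and 19064 CPM) made up most of that sum, and the miR-9 loci and Mir218-1 ranged from 1.13 to 52.1 CPM. Of the 10 neuron loci with a RefSeq mature sequence 6 share 1 arm and 3, the miR-9 loci, every arm with another locus. Their counts may leave out shared reads, and the arms of the Mir124a loci were not compared here. Low counts at the miR-9 and Mir124a loci are therefore not read as low levels of these miRNAs. Endocrine and epithelial markers, of tissues where miR-7 is also high, summed to 429 and 413 CPM over 9 loci, led by Mir375 at 270 and 258 CPM. Myeloid and lymphoid (1910 and 1870 CPM), oligodendrocyte (4684 and 3502 CPM), endothelial (17007 and 18138 CPM, all from Mir126a, with Mir126b at 0) and liver markers (Mir122, 58.4 and 76.0 CPM) were also present, and their part in the levels of miR-7 and miR-671 was not tested.

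In reads assigned to a gene, Mir671 and Mir7b stood more than 10-fold above Mir7-1 and Mir7-2 in both libraries. Mir671 had 2820 reads in replicate 1, 1184 CPM (1141 to 1229), and 11696 reads in replicate 2, 2636 CPM (2589 to 2685). Mir7b had 2890 reads, 1213 CPM (1170 to 1258), in replicate 1 and 5777 reads, 1302 CPM (1269 to 1336), in replicate 2. The level of Mir7b was thus nearly the same in both libraries, and that of Mir671 was much higher in replicate 2.

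Mir7-2 had 153 reads in replicate 1, 64.2 CPM (54.5 to 75.3), and 393 in replicate 2, 88.6 CPM (80.04 to 97.8). Mir7-1 had 166 reads in each library, which was 69.7 CPM (59.5 to 81.1) in replicate 1 and 37.4 CPM (31.9 to 43.6) in replicate 2. The intervals of Mir7-2 and Mir7-1 overlapped in replicate 1 and lay apart in replicate 2.

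Over both libraries Mir671 averaged 1910 ± 1027 CPM (SD, n = 2), Mir7b 1258 ± 62.8 CPM, Mir7-2 76.4 ± 17.2 CPM and Mir7-1 53.6 ± 22.8 CPM. Per 100 bases of annotated hairpin the levels kept that order, with 1949 ± 1048 CPM for Mir671, 1133 ± 56.5 CPM for Mir7b, 78.8 ± 17.7 CPM for Mir7-2 and 49.6 ± 21.1 CPM for Mir7-1. Mir671 held rank 67 and Mir7b rank 86 by mean level among the 2202 genes, and Mir7-2 and Mir7-1 held ranks 216 and 228. Mir671 stood at rank 89 in replicate 1, below Mir7b at 87, and at rank 54 in replicate 2, above Mir7b at 81. Mir7-2 stood at ranks 219 and 207 and Mir7-1 at 213 and 239, so their order by rank turned as well. In replicate 1 the difference in reads within each pair lay within counting error, so whether either order turned is not known. Among the 728 genes with any read, 90.8% lay below Mir671, 88.2% below Mir7b, 70.3% below Mir7-2 and 68.7% below Mir7-1.

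**Figure D2:**
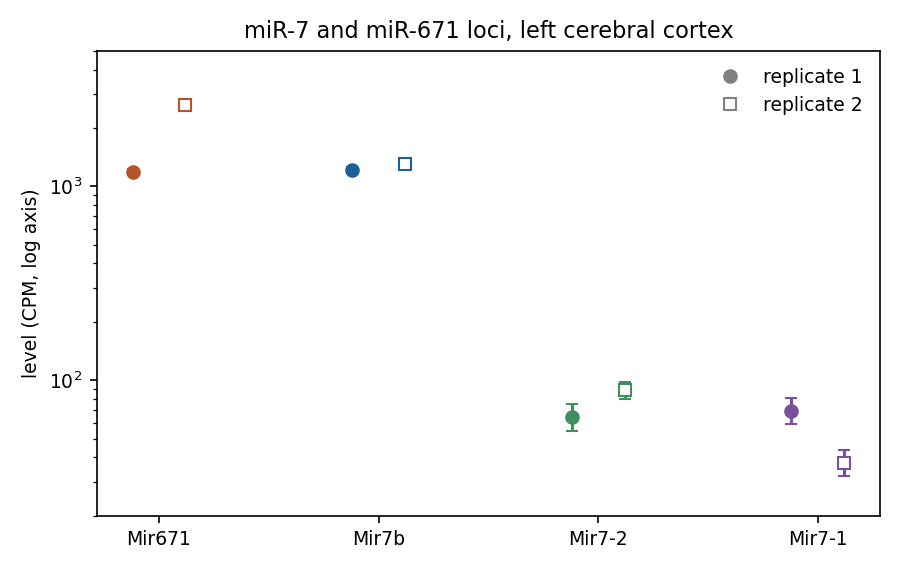
Level of each locus in CPM on a log axis, with filled circles for replicate 1, open squares for replicate 2 and bars for the 95% exact binomial interval, which is narrower than the symbol for Mir671 and Mir7b. Mir671 and Mir7b lie between 1184 and 2636 CPM, and Mir7-2 and Mir7-1 between 37.4 and 88.6 CPM.

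**Figure D3:**
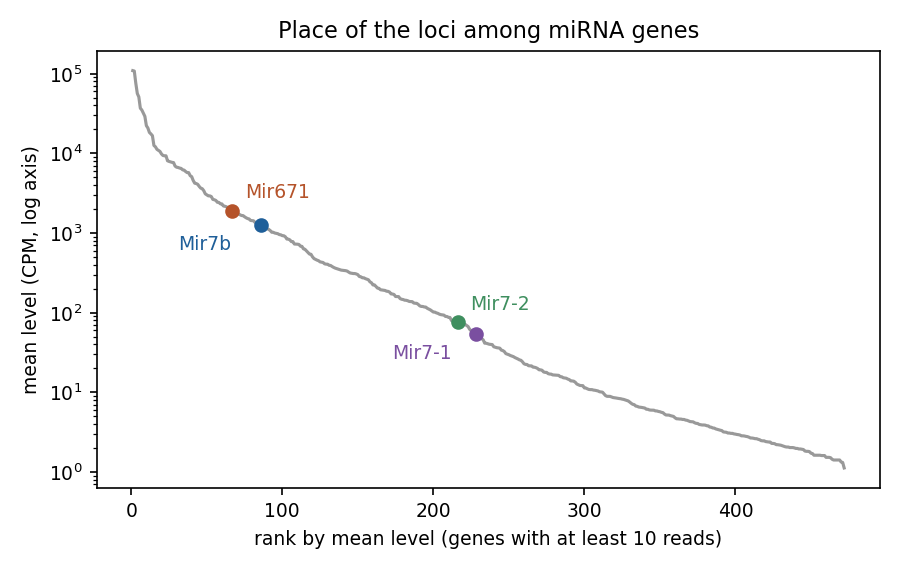
Mean level in CPM on a log axis against rank for the 472 miRNA genes with at least 10 reads in total. Mir671 and Mir7b sit at ranks 67 and 86 on the upper part of the curve, and Mir7-2 and Mir7-1 at ranks 216 and 228.

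The order held between the upper and the lower loci but was not settled within either pair. Mir7b exceeded Mir7-2 by 4.22 ± 0.12 (counting SE) on the log2(CPM + 1) scale in replicate 1 and by 3.86 ± 0.08 in replicate 2. It exceeded Mir7-1 by 4.10 ± 0.12 in replicate 1 and by 5.08 ± 0.11 in replicate 2. Both differences were larger than their spread between the libraries, with means of 4.04 ± 0.25 and 4.59 ± 0.69 (SD, n = 2). They are differences in reads assigned to a gene. Reads of the shared miR-7a-5p arm may be missing at Mir7-2 and Mir7-1, whereas Mir7b and Mir671 share no arm.

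Mir671 minus Mir7b was -0.04 ± 0.04 in replicate 1 and 1.02 ± 0.02 in replicate 2, a mean of 0.49 ± 0.74 (SD, n = 2). Per 100 bases of hairpin the difference was positive in both libraries, 0.14 and 1.20 on the log2 scale. The RNA sequenced was under 30 nt, and whether its reads follow hairpin length was not tested. Mir7-2 minus Mir7-1 was -0.12 ± 0.16 in replicate 1 and 1.22 ± 0.13 in replicate 2, a mean of 0.55 ± 0.95, and 0.04 and 1.40 per 100 bases. Neither of these differences exceeded its spread between the libraries, so Mir671 and Mir7b were not ordered by these data, nor were Mir7-2 and Mir7-1.

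Mir7b supplied most of the miR-7 reads that were assigned to a gene. It held 90.1% (89.0 to 91.1) of 3209 such reads in replicate 1 and 91.2% (90.5 to 91.9) of 6336 in replicate 2. Mir7-2 held 4.77% (4.06 to 5.56) in replicate 1 and 6.20% (5.62 to 6.82) in replicate 2. Mir7-1 held 5.17% (4.43 to 5.997) in replicate 1 and 2.62% (2.24 to 3.04) in replicate 2. Together the 3 loci came to 1347 and 1428 CPM, a mean of 1388 ± 57.1 CPM, of which the reads of the shared miR-7a-5p arm may be missing, so these shares do not rank miR-7b above miR-7a.

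Loci that share a mature arm were set beside Mir7-1 and Mir7-2 to place their counts. Of 1022 loci with a RefSeq mature sequence, 57 shared exactly 1 of their arms with another locus, as Mir7-1 and Mir7-2 do. A minimum of 10 reads in both libraries was met by 38 of the 57 (66.7%), and their median over all 57 was 21.7 CPM, ranging from 0 to 16709 CPM. Mir7-2 lay above 34 of them and Mir7-1 above 31. Loci with every arm shared numbered 37, of which 6 (16.2%) had that many reads, with a median of 0 CPM. Mir7b and Mir671 belong to the 928 loci with no shared arm, of which 289 (31.1%) had 10 reads in each library, and they lay above 858 and 874 of them.

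Between the copies of a miRNA the balance was compared in 16 pairs of loci that share 1 arm and met that minimum at both loci. By reads alone Mir7-1 and Mir7-2 were among 3 pairs whose order turned between the libraries, beside Mir26a-1 with Mir26a-2 and Mir135a-1 with Mir135a-2. Per hairpin base the order turned in 2 pairs, and the pair of miR-7 was not among them. Its log2 ratio of Mir7-1 over Mir7-2 was -0.04 in replicate 1 and -1.40 in replicate 2. The value in replicate 1 is smaller than its counting SE of 0.16, so whether the order of Mir7-1 and Mir7-2 turned is not known. The 16 pairs share both libraries and are described without a test.

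**Figure D4:**
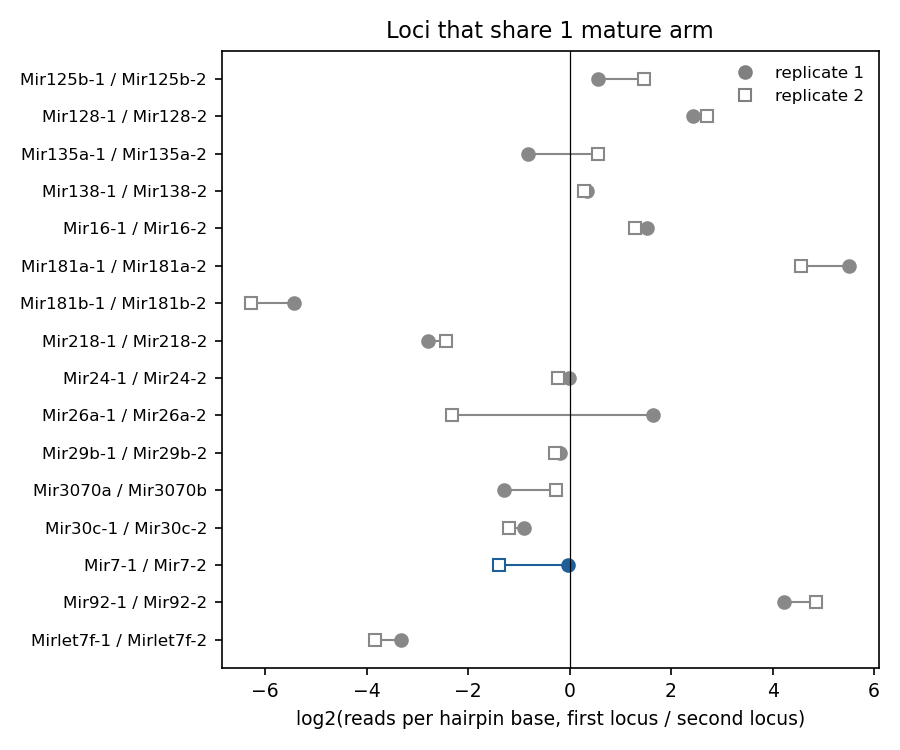
Log2 ratio of reads per hairpin base, first locus over second, for the 16 pairs of loci that share 1 mature arm, with filled circles for replicate 1 and open squares for replicate 2. The pair of Mir7-1 and Mir7-2 (blue) lies at -0.04 and -1.40.

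The libraries were then compared gene by gene, which compares these libraries and not conditions. A two-sided exact binomial test with Benjamini-Hochberg adjustment over 472 genes, which allows for counting noise alone, called all 4 loci, beside 52.1% of all genes tested. With a minimum of 50 reads in total, which all 4 loci exceed, the test called 69.6% of 335 genes. Of the 4, Mir7-1 was higher in replicate 1, as were 24.6% of genes tested, and the other 3 were higher in replicate 2, as were 27.5%. With a common dispersion added, in edgeR's exact test, 0 of the 4 and 0.424% of all genes were called (2 genes, and 28 at an unadjusted p under 0.05). That dispersion was estimated from the difference between the same 2 libraries, so few calls follow from its construction and it says nothing about single loci.

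Mir671, whose hairpin includes the arm that pairs along most of its length with Cdr1as, had the largest ratio of the 4. It was 2.18-fold higher in replicate 2, a log2 ratio of replicate 1 over replicate 2 of -1.13 ± 0.03 (counting SE; log10 of the adjusted p = -348.9 by the exact binomial test), and 15.7% of tested genes had a larger absolute ratio. The counts of Mir671 are for the whole gene and do not separate the arms of its hairpin. Neither the level nor the ratio of the arm that pairs with Cdr1as was therefore tested. In bulk tissue fewer cells that make a miRNA and less of it per cell cannot be told apart.

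Mir7-1, the locus in Hnrnpk, was 1.90-fold higher in replicate 1, a log2 ratio of 0.93 ± 0.16 (adjusted p = 2.54e-08, exact binomial test). Mir7-2 had a log2 ratio of -0.43 ± 0.14 (adjusted p = 0.00313, exact binomial test), close to the median absolute ratio of 0.45 over all tested genes. In reads assigned to a gene, the difference between the libraries thus had opposite signs at Mir7-1 and Mir7-2. Reads of the shared miR-7a-5p arm may be missing at both loci, so these signs say nothing about the level of miR-7a-5p. Mir7b had a log2 ratio of -0.07 ± 0.03 (adjusted p = 0.0473, exact binomial test), with a larger absolute ratio at 94.1% of tested genes, and this direction turned to 0.00 with an adjusted p of 1 under RLE scaling. It was the steadiest of the 4 between the libraries.

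**Figure D5:**
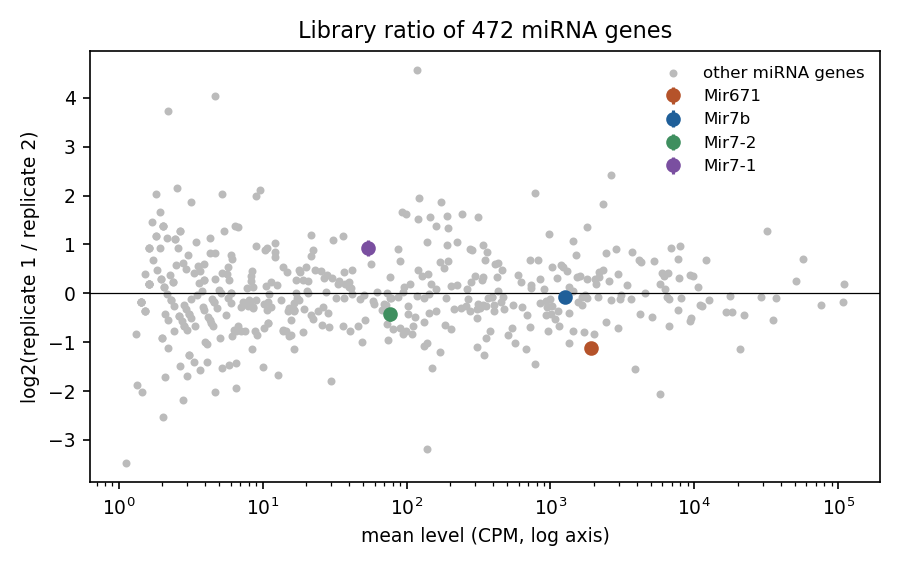
Log2 ratio of replicate 1 over replicate 2 against mean level in CPM on a log axis for the 472 tested genes (grey), with the 4 loci in colour and bars for the counting SE. Mir7-1 lies above 0 at 0.93 and Mir671 below it at -1.13, both inside the cloud of all genes.

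The genes nearest in level were taken as the 3 with the smallest larger difference in log2(CPM + 1) over the 2 libraries. For Mir671 these were Mir129-2 (1435 and 2610 CPM), Mir138-2 (1231 and 2170 CPM) and Mir423 (885 and 1815 CPM). For Mir7b they were Mir760 (1406 and 1306 CPM), Mir341 (1151 and 1549 CPM) and Mir181d (1446 and 1435 CPM). For Mir7-2 they were Mir3059, at most 0.02 away, Mir148b and Mir24-2. For Mir7-1 they were Mir26a-2 at 67.6 and 45.8 CPM, Mir9-3 and Mir183.

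Beside the ratios of miR-7 and miR-671 the marker genes moved as follows. These counts are from the binomial test, which called 24.6% of all genes higher in replicate 1 and 27.5% higher in replicate 2, and nothing is read from them. Of 10 tested neuron loci 1 was called higher in replicate 1 (Mir132, log2 ratio 0.71) and 4 higher in replicate 2, with a median of -0.22 against -0.07 over all tested genes. The 4 were Mir128-1, Mir128-2, Mir138-1 and Mir138-2, with log2 ratios between -0.79 and -0.12. Of 8 endocrine and epithelial loci 3 were called higher in replicate 1 and 1, Mir200b, higher in replicate 2, with a median of 0.33, and Mir375 was not called (log2 ratio 0.09, adjusted p = 0.312 by the exact binomial test). Of 3 oligodendrocyte loci 1 was called in each direction, of 4 myeloid and lymphoid loci Mir142 was called higher in replicate 1 (log2 ratio 1.63), and of the endothelial and liver loci Mir126a had a log2 ratio of -0.07 and Mir122 of -0.35. RLE scaling adds 0.07 to every log2 ratio, which takes Mir126a, like Mir7b, to about 0. Their part in the ratios of the 4 loci was not tested.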

How the data were processed

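The authors deposited 1 table per library of unnormalized counts of reads at miRNA genes, in 3 columns: both strands, the strand of the gene, and its opposite. Build mm10 and annotation GENCODE M21 are named in the notes deposited beside the tables; the aligner, trimming and counting settings: not given in the sources used here. The summary lines (unmapped, multimapping, no feature, ambiguous) were kept out of totals and tests. All 2202 identifiers matched GENCODE M21.

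Gene-strand counts were scaled to CPM. Library ratios used TMM factors from edgeR 4.0.16 (R 4.3.3) computed on genes reaching 10 reads over both libraries (0.990 and 1.01), with 0.5 reads added to each count, and a threshold of 0.05. The binomial test was run in scipy 1.17.1 (Python 3.11.15) and tested on simulated data. For Mir671, whose p lay below the range of the software, the tail was summed on a log scale and doubled. The edgeR common coefficient of variation was 0.351. RefSeq arms were placed in GENCODE genes by coordinates of the same build. Log levels used a pseudocount of 1 CPM.

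The loci, marker lists and tests were chosen with earlier results of these data known. Named are the 4 loci, their 3 nearest genes each, overlapping or neighbouring genes, loci of like seed and the marker lists. The targets in Cdr1as and Cyrano, the comparison of 16 pairs and the miRNA gene inside the C230004F18Rik locus were added after the values were seen. Depth was 8041772 reads in replicate 1 and 12239366 in replicate 2. Unmapped reads made up 30.8% of these in replicate 1 and 14.6% in replicate 2. Gene-strand reads at miRNA genes made up 29.6% and 36.2%. The part of this difference in the library ratios was not tested.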

Additional observations from a re-analysis of the deposited data

How the results depend on the processing

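A wider total lowered every level and kept the order of the means: with all reads as the total, Mir671, Mir7b, Mir7-2, Mir7-1 and the 3 miR-7 loci together stood at 653, 416, 25.6, 17.1 and 458 CPM, and with multimapping reads added to the total at 858, 567, 34.4, 24.2 and 625 CPM. Both-strand counts gave 1374 CPM for Mir7b and 1516 CPM for the 3 loci. Their reads were the same in both columns, and only the both-strand total was smaller, 2184273 in replicate 1 and 4051808 in replicate 2. Per 100 bases Mir7b stood at 1133 CPM. Without 1 replicate, levels ranged from 1184 to 2636 CPM for Mir671, 1213 to 1302 for Mir7b, 64.2 to 88.6 for Mir7-2, 37.4 to 69.7 for Mir7-1 and 1347 to 1428 for the 3 loci. On the log2 scale Mir671 minus Mir7b ranged from -0.0353 to 1.02 and Mir7-2 minus Mir7-1 from -0.12 to 1.22, so without length scaling the sign of each rests on replicate 2. Per 100 bases both were positive in either library. For Mir7-2 minus Mir7-1 the value in replicate 1, 0.04, was smaller than its counting SE of 0.16 and sets no order. In reads assigned to a gene, Mir7b minus Mir7-2 (3.86 to 4.22) and minus Mir7-1 (4.10 to 5.08) kept their sign.

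The count of 246 called genes fell to 2 with edgeR's exact test, whose dispersion comes from the difference between the same 2 libraries, so that few calls follow from its construction. It left the log2 ratios at 0.92 for Mir7-1, -0.44 for Mir7-2, -0.0742 for Mir7b and -1.13 for Mir671, each with an adjusted p of 1, which says nothing about single loci. The binomial call of Mir7b was also lost with both-strand counts (-0.0488, adjusted p = 0.218, binomial test) and with a minimum of 1 read (-0.0741, adjusted p = 0.0712, binomial test), and its ratio turned to 0.00087 with RLE; the cause was not tested. The binomial calls of the other 3 held under RLE, library totals, both-strand counts and both other read minimums. Among all 2202 genes, 7.75% of those sharing a 20-base word had 10 reads in each library (84 of 1084), against 25.3% with no such word, a different base from the 1022 loci with a RefSeq mature sequence behind the 66.7%. No paired analysis was possible because there is 1 group.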

Other observations

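Beside miR-671-5p, 4 further miRNA genes have a 5p or 3p seed that differs from the miR-7 seed by 1 base. Mir379, of the imprinted Dlk1-Dio3 cluster, had 15211 reads (6387 CPM) in replicate 1 and 18324 (4130 CPM) in replicate 2, above each of the miR-7 loci. Mir1193, of the same cluster and with the same seed as miR-379-5p, had 33 and 109 reads, Mir1934 had 18 and 42, and Mir6913 had 7 and 5. Mir495 shares bases 2 to 7 with miR-7a-1-3p, the arm that tells Mir7-1 from Mir7-2, and stood at 186 and 91.97 CPM. Next to the seed of miR-671-5p, Mir764 had 25 and 88 reads and Mir7062 had 0 and 10.

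The miRNA gene Gm24396 lies at chrX:61145362-61145454, inside the annotated locus of C230004F18Rik. This is before the Cdr1as sites printed above, and not within the stretch that holds them. Gm24396 had 0 reads in both libraries, which allows up to 1.26 CPM in replicate 1 and 0.676 CPM in replicate 2.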
